A study of Mus musculus with 6 samples.

Results

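Of 10 genes of prostaglandin and leukotriene synthesis and signalling, chosen by name, 9 were measured in BV-2 cells by a row of their own in a table of 22180 such genes. They were Ptgs2, Ptges, Pla2g4a, Ptger2, Ptger4, Ptgir, Alox5, Alox5ap and Ltc4s. The tenth, Ptgs1, which codes for the constitutive cyclooxygenase, had no row named for it alone. A row under its synonym COX1 carries the gene identifier of the cytochrome c oxidase subunit encoded in the mitochondrial genome, so it was not used and Ptgs1 was not analysed here. Alox5 and Alox5ap each had a further row, and the row with the higher mean over all arrays was taken.

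BV-2 is a mouse microglial line made by transformation with a retrovirus carrying raf and myc oncogenes, so every array came from a single immortalised line. RNA of control cells and of cells given lipopolysaccharide (LPS) of Escherichia coli O111:B4, a bacterial cell wall component, at 1 µg/mL for 24 h was hybridised to whole-transcript arrays, 3 per group. Both groups were plated in medium with less serum than in routine culture, and when the controls were harvested is not given. Replicate numbers run from 1 to 3 in each group, and no label says that they stand for separate cultures. The p-values therefore rest on array-to-array spread that could be technical only. In RNA from whole cultures, a change in how many cells carry a transcript and a change in its amount per cell cannot be told apart.

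Prostaglandins and leukotrienes are lipid signals made from arachidonic acid that phospholipase A2 frees from membranes. Cyclooxygenases turn it into prostaglandin H2, from which terminal synthases make prostaglandin E2, prostacyclin and others, while 5-lipoxygenase and its helper protein FLAP make leukotriene A4, the parent of leukotriene B4 and the cysteinyl leukotrienes. In microglia and macrophages, the inducible cyclooxygenase and prostaglandin E2 are well known parts of the response to LPS, and the E and I type prostanoid receptors signal back to the same cells.

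The members with the largest positive differences were Ptgs2, Ptgir and Ptges. In each of these, all 3 LPS arrays lay above all 3 controls, with LPS over control ratios of 8.52, 2.87 and 1.87 from the differences in mean log2 expression. The leukotriene genes Alox5ap and Ltc4s had negative differences, and their groups overlapped. No member passed limma's test over all 41345 rows at adjusted p under 0.05. Of all rows, 0.193% were higher and 0% lower by that rule, so a count of 0 among 9 lies near the background. At unadjusted p under 0.05, 3 members were higher and 0 lower, against 4.98% and 1.4% of all rows. The same 3 members were those without overlap, 3 above and 0 below, against 7.74% and 3.48% of all rows. After quantile normalization the counts of members were the same, while all rows were split more evenly, with 3.66% higher and 3.12% lower at unadjusted p under 0.05 and 5.74% wholly above and 6.01% wholly below. The median difference of the 9 members was 0.086 on the log2 scale, and that of all genes was 0.033.

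The 6 arrays had medians between 2.88 and 2.97 on the log2 scale. For rows with a level from 7 to 9, control replicate 2 lay below the other controls by a median difference of -0.62, and for rows from 5 to 7 by -0.39. Rows of LPS replicate 3 differed from the other LPS arrays by medians of -0.023 and 0.13 in the same ranges. By these medians only control replicate 2 stood apart. Array weights from limma, lower for noisier arrays, were 0.45 for it and 0.73 for LPS replicate 3, near the 0.83 of LPS replicate 1. Both arrays were picked with earlier results of these data known, and outlying is used below only as their label. Differences of most members and of some other genes are also given without both of them, with 2 arrays left per group. The choice used these data, so p-values from that comparison are descriptive. Of 12 microglia and macrophage markers 11 were above background, the exception being Tmem119. Among those 11, Aif1, Cx3cr1 and P2ry12 had low means of 3.97, 3.70 and 3.65 over all arrays, while Cd68 had the highest, 10.80. Background is taken here as 3.08, the 95th percentile of 1443 rows for chemosensory receptors, assumed without a test to be mostly silent here. Of 6 markers each of mast cells and neutrophils, cells known for leukotriene synthesis, 0 were above it. Among neuron, endothelial and fibroblast markers 1 of 5 each was above it (Rbfox3 at 3.46, Kdr at 8.83 and Col1a2 at 3.10), and 0 astrocyte or oligodendrocyte markers were. In 6 genes known to respond to LPS (Il1b, Tnf, Il6, Nos2, Nfkbia and Acod1) every LPS value lay above every control value.

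**Figure D1:**
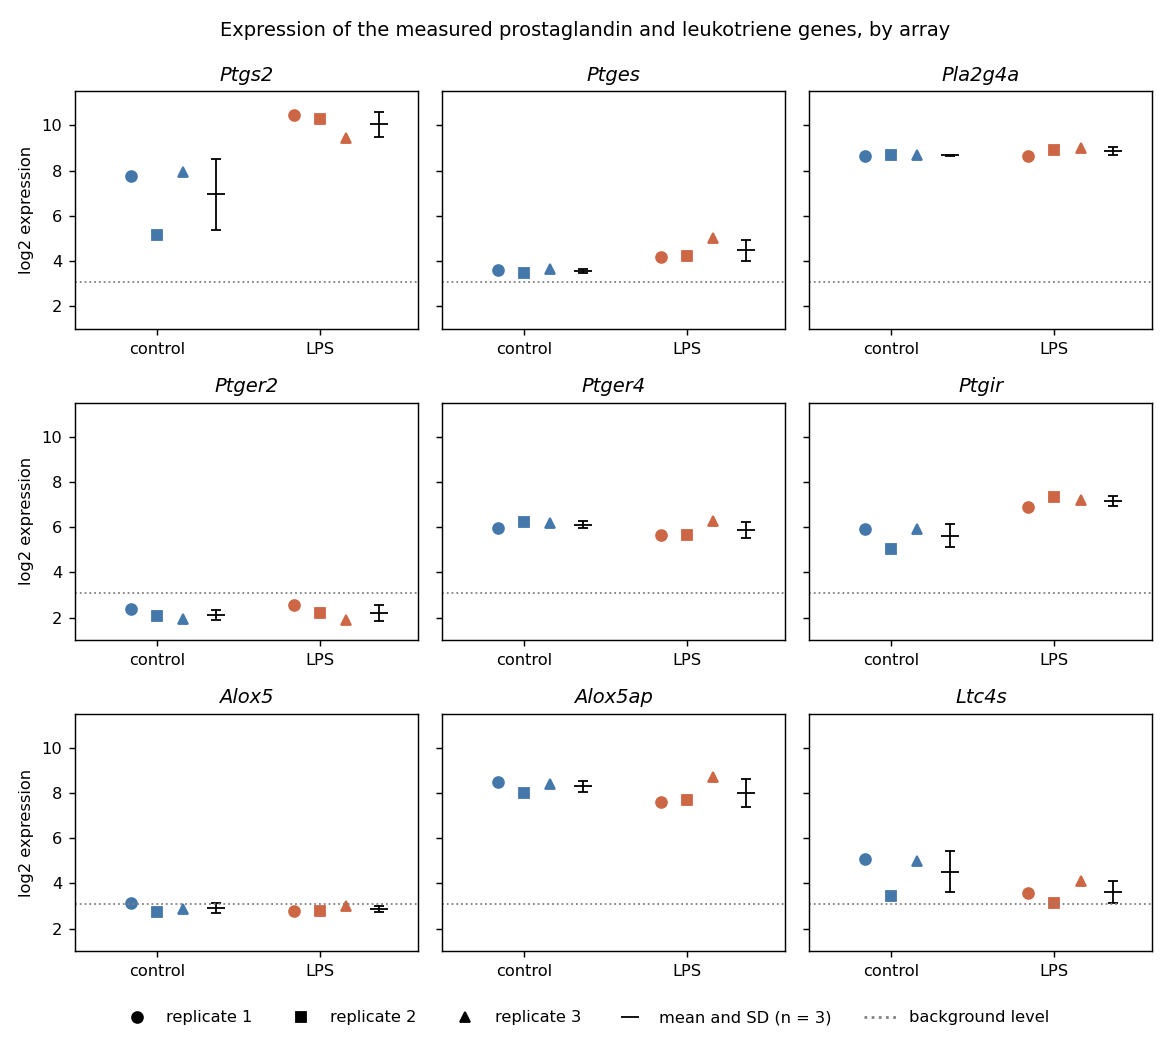
Log2 expression of the 9 measured genes in each of 6 arrays; symbols mark the replicate number, black bars the mean and SD of 3 arrays, and the dotted line the background level of 3.08. Ptgs2, Ptges and Ptgir show no overlap between groups. Control replicate 2 is the lowest control for Ptgs2 (5.15), Ptgir (5.04), Ltc4s (3.46), Alox5ap (7.99), Ptges (3.48) and Alox5 (2.74).

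Pla2g4a codes for cytosolic phospholipase A2 alpha, the enzyme that frees arachidonic acid in response to calcium and phosphorylation. Its log2 expression was 8.66, 8.70 and 8.69 in control replicates 1 to 3, against 8.67, 8.92 and 9.02 after LPS. The groups overlapped, with LPS replicate 1 inside the narrow control range. The difference was 0.18 (SE 0.14; limma adjusted p = 0.98), and its 95% confidence interval from -0.16 to 0.53 corresponds to ratios between 0.894 and 1.44. Among these 9 genes it had the smallest spread between controls, an SD of 0.02 (n = 3). The difference was 0.12 without both outlying arrays, 0.11 without LPS replicate 3, 0.28 without LPS replicate 1 and 0.015 after quantile normalization.

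Ptgs2 codes for the inducible cyclooxygenase COX-2, the target of many anti-inflammatory drugs. Its values were 7.78, 5.15 and 7.94 in the control arrays, against 10.45, 10.27 and 9.42 after LPS. Control replicate 2 was 2.71 log2 units below the other controls (difference -2.71), more than the median of like rows, and LPS replicate 3 was the lowest of its group (difference -0.93). The mean went from 6.95 ± 1.57 to 10.05 ± 0.55 (SD, n = 3), a difference of 3.09 (SE 0.75; 95% interval 1.31 to 4.87; limma adjusted p = 0.36). As a ratio this is 8.52, with an interval from 2.48 to 29.3. Without control replicate 2 the difference was 2.19 (adjusted p = 0.11). Both outlying arrays held the lowest value of their group. Without them the difference was 2.50 (SE 0.18; limma adjusted p = 0.012), a ratio of 5.65 that passed the threshold. In that comparison 0.368% of rows passed as higher and 0.162% as lower. The arrays left out lay furthest from the others of their group for Ptgs2, so its spread had to narrow. The pass of Ptgs2 is therefore no independent support.

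Ptges codes for the inducible microsomal prostaglandin E synthase, which works downstream of COX-2. It was measured at 3.60, 3.48 and 3.66 in the control arrays, against 4.20, 4.24 and 5.01 after LPS. The controls were close to the background level, which can understate a ratio, and LPS replicate 3 was the highest array. The difference was 0.90 (SE 0.24; 95% interval 0.33 to 1.47; limma adjusted p = 0.44). Without LPS replicate 3 it was 0.64 (adjusted p = 0.34), and without both outlying arrays 0.59 (SE 0.16; adjusted p = 0.26). Thus LPS replicate 3 held the lowest LPS value of Ptgs2 and the highest of Ptges.

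The sequences before the annotated starts of Ptgs2, Ptges and Ptgir are shown because these are the 3 members whose groups did not overlap. They are the 250 bases upstream of the start in RefSeq (GRCm38.p6), chr1:150099781-150100030 on the plus strand for Ptgs2, chr2:30903298-30903547 on the minus strand for Ptges and chr7:16906240-16906489 on the plus strand for Ptgir. Capitals mark every match to the motifs named after them.
Ptgs2: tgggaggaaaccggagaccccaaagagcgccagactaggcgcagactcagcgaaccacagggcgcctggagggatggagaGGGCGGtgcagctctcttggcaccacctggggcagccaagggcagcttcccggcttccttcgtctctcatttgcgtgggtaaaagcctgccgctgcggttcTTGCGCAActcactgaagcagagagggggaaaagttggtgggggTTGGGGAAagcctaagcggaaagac
Ptges: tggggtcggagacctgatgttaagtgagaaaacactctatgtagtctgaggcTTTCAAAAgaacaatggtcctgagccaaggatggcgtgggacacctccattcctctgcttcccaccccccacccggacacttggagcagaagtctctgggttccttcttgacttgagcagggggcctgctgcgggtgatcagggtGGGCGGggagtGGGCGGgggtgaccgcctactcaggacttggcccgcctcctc
Ptgir: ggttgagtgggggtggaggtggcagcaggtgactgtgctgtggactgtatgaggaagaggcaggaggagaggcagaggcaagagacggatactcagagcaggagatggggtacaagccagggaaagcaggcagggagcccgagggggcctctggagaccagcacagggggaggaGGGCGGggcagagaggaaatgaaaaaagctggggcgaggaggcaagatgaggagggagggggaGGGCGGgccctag

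Motifs were searched on both strands of 300 bases, from 250 before to 50 after each start, for the 9 members with such a window (Alox5ap had none in the table, and Ptgs1 is included here). The motifs were C/EBP (TTNNGNAA), Sp1 (GGGCGG), the core of the cyclic AMP response element (CRE, TGACG), the E-box CACGTG, AP-1 (TGANTCA), the TATA box (TATAAA) and the NF-kappaB consensus. C/EBP was matched in 4 of 9 members and in 40.7% of 32851 windows in RefSeq. Members are counted by gene, Pla2g4a over more than 1 window, while the shares are by window, so the units differ. Sp1 was matched in 5 of 9 and in 35.7% of windows. The 5 were Ptgs2, Ptges, Ptgir, Ptger4, which had a negative difference, and Alox5, which lay within the background range. In Ptgs2 the C/EBP matches began at -69 and -25, counted from the annotated start.

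The CRE core and the E-box were each matched in 1 of the 9 members, Ptgs2, against 20.8% and 7.15% of windows. These matches share bases, at positions 14 to 22 after the annotated start, in a stretch of 9 bases shown in capitals within chr1:150100038-150100058.
Ptgs2, CRE and E-box: ccactaCGTCACGTGgagtcc
NF-kappaB and AP-1 were matched in 0 of 9 members, against 8.46% and 7.81% of windows. The TATA box was matched in 1, on the opposite strand at positions -200 to -195 relative to an annotated start of Pla2g4a, against 13.6% of windows. No match says that these letters are not in this window. A match is a description of the letters and not evidence that a factor binds there. Where transcription begins in these cells was not tested, so all positions hold for the annotated starts only.

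**Figure D2:**
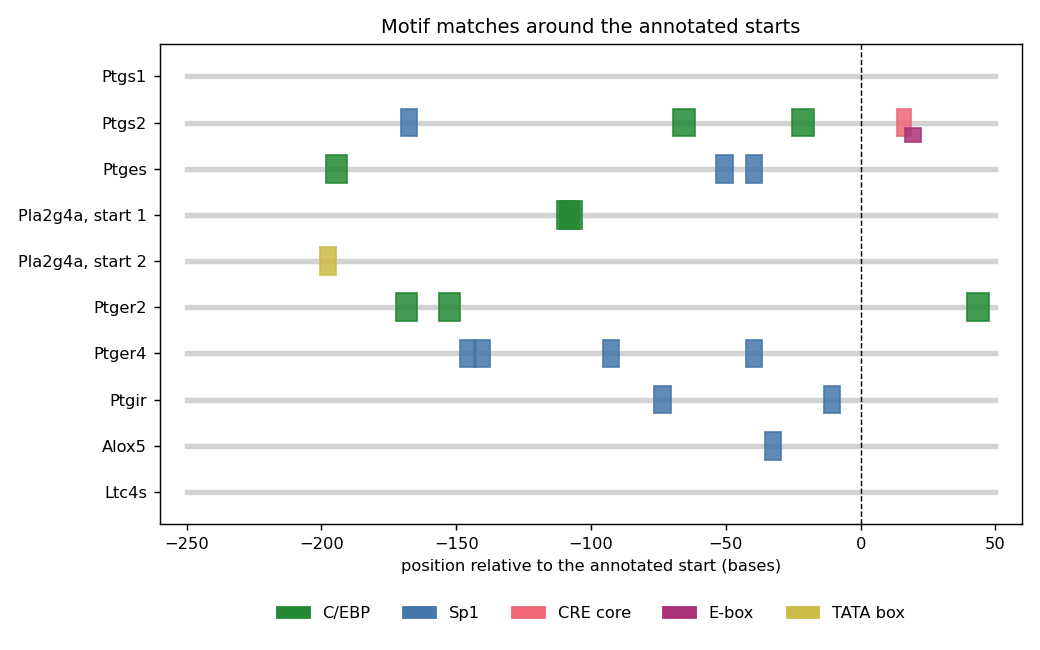
Positions of motif matches from 250 bases before to 50 bases after the annotated start (dashed line) for 9 member genes, Pla2g4a having more than 1 annotated start; colours mark the motif. Sp1 is matched in 5 genes, and the overlapping CRE core and E-box lie just after the annotated start of Ptgs2.

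Ptgir codes for the prostacyclin receptor IP, which raises cyclic AMP. Its values were 5.90, 5.04 and 5.90 in the control arrays, against 6.88, 7.32 and 7.22 after LPS. The lowest LPS array lay about 1 log2 unit above the highest control. The mean went from 5.61 ± 0.50 to 7.14 ± 0.23 (SD, n = 3), a difference of 1.52 (SE 0.27; 95% interval 0.88 to 2.17; limma adjusted p = 0.18). This was the smallest adjusted p among the members. Without control replicate 2 the difference was 1.24 (adjusted p = 0.11), and without both outlying arrays 1.20 (SE 0.21; adjusted p = 0.11). It stayed above 0.05 in each alternative run, between 0.069 and 0.66.

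Ptger4 codes for the EP4 receptor and Ptger2 for EP2, both receptors of prostaglandin E2 that raise cyclic AMP. Ptger4 had 5.95, 6.20 and 6.17 in the control arrays, against 5.66, 5.66 and 6.27 after LPS. LPS replicates 1 and 2 lay below every control and LPS replicate 3 above every control. The difference was -0.24 (SE 0.21; 95% interval -0.73 to 0.25; limma adjusted p = 0.99), -0.44 (adjusted p = 0.61) without LPS replicate 3, and -0.40 (interval -0.83 to 0.04; adjusted p = 0.50) without both outlying arrays. It was -0.14 without LPS replicate 1 and also without LPS replicate 2. Ptger2 lay within the background range, at 2.36, 2.08 and 1.93 in the control arrays, against 2.56, 2.20 and 1.87 after LPS, so its difference of 0.086 (SE 0.22) says nothing about a change in the receptor.

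Alox5 codes for 5-lipoxygenase, which starts leukotriene synthesis. Its brighter row had 3.14, 2.74 and 2.86 in the control arrays, against 2.79, 2.77 and 3.01 after LPS, with both group means in the background range. The difference was -0.059 (SE 0.16), and that of its second row was -0.080 (SE 0.13). The value of control replicate 1 was just above the background level and the other 5 were below it.

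Alox5ap codes for FLAP, the membrane protein that presents arachidonic acid to 5-lipoxygenase. It had 8.47, 7.99 and 8.40 in the control arrays, against 7.58, 7.68 and 8.72 after LPS. LPS replicates 1 and 2 lay below every control, while LPS replicate 3 was the highest of the 6 arrays. The difference was -0.29 (SE 0.33; 95% interval -1.07 to 0.49; limma adjusted p = 0.996). Without LPS replicate 3 it was -0.66 (adjusted p = 0.50), and without both outlying arrays -0.80 (SE 0.17; adjusted p = 0.15), a ratio of 0.573. Leaving out another LPS array moved it the other way, to -0.083 without LPS replicate 1 and -0.14 without LPS replicate 2. The second row of Alox5ap, with 4.06, 3.56 and 4.07 in the control arrays, against 3.29, 3.21 and 3.96 after LPS, had a difference of -0.41 (SE 0.25; adjusted p = 0.94), and in it too LPS replicate 3 was the highest LPS array.

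Ltc4s codes for leukotriene C4 synthase, which joins glutathione to leukotriene A4. Its values were 5.08, 3.46 and 5.01 in the control arrays, against 3.57, 3.15 and 4.12 after LPS. Control replicates 1 and 3 lay above every LPS array, and control replicate 2 fell inside the LPS range. The mean went from 4.52 ± 0.91 to 3.61 ± 0.49 (SD, n = 3), a difference of -0.91 (SE 0.48; 95% interval -2.04 to 0.23; limma adjusted p = 0.90). Without control replicate 2 it was -1.43 (adjusted p = 0.21). Without both outlying arrays it was -1.69 (SE 0.21; limma adjusted p = 0.047), a ratio of 0.311 that passed the threshold. Those arrays held its lowest control and its highest LPS value, so leaving them out had to widen the gap. That pass is therefore no independent support. In that comparison 1 member passed as higher, Ptgs2, and 1 as lower, Ltc4s. All LPS values lay above all controls in 3 of 9 members and below in 4, against 18.7% and 22.3% of rows with so few arrays. Of the 4 below, Alox5 lay within the background range, and among the 7 members above background 3 were below. At unadjusted p under 0.05, 3 members were higher and 2 lower, against 5.47% and 5.73% of rows. With 1 array left out, Ltc4s alone was lower at that p without control replicate 2 and 2 members, Ptger4 and Alox5ap, were without LPS replicate 3, against 3.98% and 2.75% of rows. Members wholly below the controls numbered 1 and 2 there, against 13.3% and 9.72% of rows. With array weights 1 member, Ltc4s, was lower at unadjusted p under 0.05, against 3.21% of rows.

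**Figure D3:**
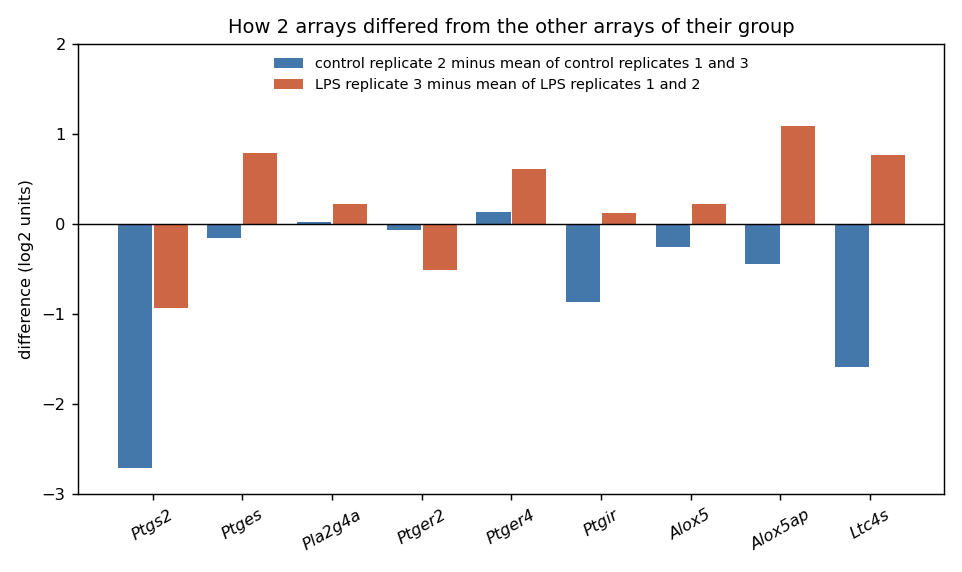
Difference in log2 expression between control replicate 2 and the mean of the other controls (blue) and between LPS replicate 3 and the mean of the other LPS arrays (orange), for 9 genes. Control replicate 2 deviates most for Ptgs2 (-2.71) and Ltc4s (-1.58), and LPS replicate 3 most for Alox5ap (1.09).

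A list of 68 other genes of eicosanoid metabolism, of which 62 had a row of their own, placed these members in their pathway. In limma 0 of the 62 passed as higher and 0 as lower, 6 and 3 did at unadjusted p under 0.05, and the median difference was 0.022. The shares of all rows were 0.193% and 0% by the adjusted rule and 4.98% and 1.4% by the unadjusted one. Of the 6 higher genes 1, Pla2g7, named here after its values were seen, lay within the background range. Without both outlying arrays 1 passed as higher, Lpcat2, and 1 as lower, Cysltr1, against 0.368% and 0.162% of rows. At unadjusted p under 0.05, 6 were then higher and 10 lower, against 5.47% and 5.73% of rows. All LPS values lay above all controls in 13 genes and below in 25, against 18.7% and 22.3% of rows. The median difference in that comparison was -0.11, so the middle of the list moved with the arrays used. Group means of 37 of the 62 were above background in at least 1 group.

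Among genes that handle arachidonic acid in membranes, Lpcat2, a lysophospholipid acyltransferase that also makes platelet-activating factor, had 3.87, 5.05 and 4.16 in the control arrays, against 5.96, 5.91 and 6.17 after LPS. The groups did not overlap, with a difference of 1.65 (SE 0.30; limma adjusted p = 0.20). Without control replicate 2 it was 2.00 (limma adjusted p = 0.027), and 0.128% of rows passed as higher. With array weights it was 1.84 (adjusted p = 0.046), and 0.319% of rows did. Without both outlying arrays it was 1.92 (adjusted p = 0.025). Control replicate 2 held the highest control value of Lpcat2, so leaving out that array had to widen the gap. That array also had the lowest weight. These passes are therefore no independent support. Acsl4, an acyl-CoA synthetase that prefers arachidonic acid, had a difference of 0.61 (SE 0.20; adjusted p = 0.60) with no overlap. The secreted phospholipase gene Pla2g5 had 0.37 (SE 0.38), or -0.042 without control replicate 2, and the lysosomal phospholipase gene Pla2g15 had -0.15 (SE 0.20). The hydrolase genes Abhd6 and Abhd12, whose products cleave the endocannabinoid 2-arachidonoylglycerol, had -0.82 (SE 0.40; adjusted p = 0.85) and -0.35 (SE 0.27; adjusted p = 0.98). With 1 array left out in turn, Abhd6 ran from -1.27, without control replicate 2, to -0.54, without control replicate 3. Abhd12 ran from -0.63, without LPS replicate 3, to -0.11, without LPS replicate 1, and Pla2g15 from -0.34 to -0.021 without the same arrays.

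Of 8 other prostanoid synthase genes 0 passed limma at adjusted p under 0.05, and 1 was higher at unadjusted p under 0.05, against 0.193% and 4.98% of all rows in the higher direction. Ptges2, a further prostaglandin E synthase gene, went from 4.20 ± 0.12 to 4.89 ± 0.21 (SD, n = 3) with no overlap, a difference of 0.68 (SE 0.16; limma adjusted p = 0.35). Hpgds, the haematopoietic prostaglandin D synthase gene, had 8.54, 7.94 and 8.59 in the control arrays, against 7.88, 8.19 and 7.91 after LPS, a difference of -0.36 (SE 0.21; adjusted p = 0.93). Ptgr1, whose product inactivates prostaglandins and leukotriene B4, had 1.08 (SE 0.43; adjusted p = 0.74), or 0.61 without control replicate 2. The exporter gene Abcc4 had 0.44 (SE 0.26; adjusted p = 0.93). With 1 array left out in turn, Hpgds ran from -0.57, without control replicate 2, to -0.25, without control replicate 3, and Abcc4 from 0.25, without LPS replicate 3, to 0.64, without LPS replicate 1. The other 4 measured prostanoid receptor genes, Ptger3, Ptgdr, Ptgfr and Tbxa2r, lay within the background range in both groups, as did all 6 other lipoxygenase genes.

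Downstream of leukotriene synthesis, Cysltr1, the receptor gene for cysteinyl leukotrienes, had 6.24, 5.24 and 6.01 in the control arrays, against 4.53, 4.70 and 5.13 after LPS. All LPS values lay below all controls, by a difference of -1.04 (SE 0.30; 95% interval -1.74 to -0.34; limma adjusted p = 0.48). It was -1.51 (SE 0.18; adjusted p = 0.047) without both outlying arrays, which held its lowest control and its highest LPS value. Abcc1, whose product exports leukotriene C4, went from 7.80 ± 0.12 to 8.68 ± 0.40 (SD, n = 3) with no overlap, a difference of 0.88 (SE 0.22; adjusted p = 0.39). Ptafr, the receptor gene for platelet-activating factor, had 0.85 (SE 0.40; adjusted p = 0.85), or 0.37 without LPS replicate 3, the array in which it was highest at 6.99. Its groups did not overlap, by a margin of less than the spread in either group.

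**Figure D4:**
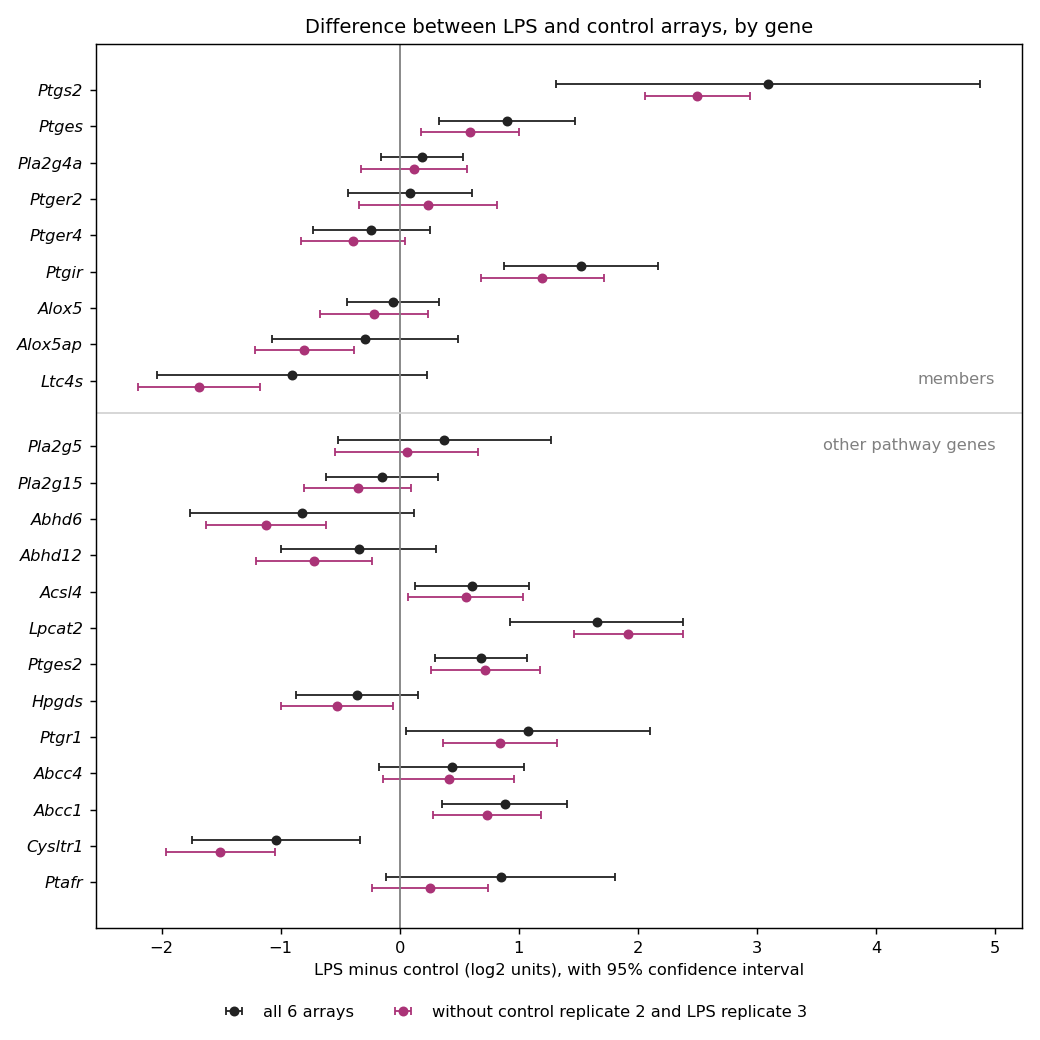
Difference between LPS and control in log2 units with 95% confidence intervals from limma, for the 9 members and 13 other pathway genes, with all 6 arrays (black) and without control replicate 2 and LPS replicate 3 (purple). Intervals of Ptgs2, Ptges and Ptgir lie above 0 in both. Those of Alox5ap and Ltc4s lie below 0 only without the outlying arrays, which held their lowest control and highest LPS values.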

How the data were processed

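Expression was measured on 6 arrays, 3 control and 3 LPS, grouped by the agent in the labels. The values were log2 expression per transcript cluster as deposited by the authors, from the Expression Console program (Affymetrix), as the submitters' processing notes name it. Its version, background correction and normalization are not given in the sources used here, and the log2 scale was read from the values (0.84 to 12.0). Slide and scan batches were not analysed here. For arrays, their number limits the precision.

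Rows were named through a platform table and matched to genes by RefSeq gene identifier, 1 symbol per row (23521 of 41345 rows; 1814 had several and 16010 none), with the highest-mean row per gene. LPS was compared with control by limma 3.58.1 in R 4.3.3 (lmFit, eBayes) on all 41345 rows without filter or further normalization, with Benjamini-Hochberg adjustment over all rows. The fit was tested on simulated data. Differences are LPS minus control, errors moderated standard errors (SE).

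Members, lists and arrays left out together were chosen with earlier results of these data known. Named were the members, called genes of the wider list and, per role, the gene above background with the highest mean and with the largest absolute difference. The genes most like Ptgs2 and Ptges over the arrays were named too. A comparison of protein sequences was planned and not run. Alternatives covered normalization, centring, row filters, variance models, array weights, a replicate block and arrays left out.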

Additional observations from a re-analysis of the deposited data

How the results depend on the processing

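Of 144 differences of the 9 members under alternatives, 139 kept their direction and their side of the threshold. The exceptions were Ptgs2 (2.50) and Ltc4s (-1.69), which passed when control replicate 2 and LPS replicate 3 were both left out, and the genes in the background range. Row filters, other variance models and the replicate block do not alter a difference, so its direction could not change there. Adjusted p-values of the members in the main limma fit, from 0.18 to 0.996, also lay far from the threshold. The 139 is therefore not a measure of robustness. With 1 array left out in turn, Ptger2 ran from -0.089 to 0.26 and Alox5 from -0.14 to 0.053. The wider gene Pla2g5 ran from -0.042, without control replicate 2, to 0.70. Leaving out both arrays gave 1 member called higher and 1 lower, 2 lower at unadjusted p under 0.05, and 4 with all LPS values below all controls, including Alox5 in the background range. It gave 1 gene of the wider list called higher and 1 lower. Array weights gave 1 member lower at unadjusted p under 0.05 and 1 wider gene called higher, Lpcat2. With 1 array left out, members called numbered 0 in each fit, members lower at unadjusted p under 0.05 ran from 0 to 2, members wholly below from 0 to 2, and wider genes called higher from 0 to 1, the highest each time without LPS replicate 3 or, for the wider list, without control replicate 2. Quantile normalization, median centring, filters on rows and other variance models called 0 members in limma.

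Whether replicate numbers pair the arrays cannot be told from these values. Deviations of same-numbered arrays from their group means correlated by 0.07, -0.26 and -0.22, and arrays of different numbers were not compared. With the replicate number as a block, 7 rows in all were called against 80, 0 of them members, the difference of Ptgs2 was 3.09 (adjusted p = 0.62), and 1 member, Ltc4s, was lower at unadjusted p under 0.05, as were 478 of all 41345 rows. The number of arrays and unknown background correction limit what can be read from low signals.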

Other observations

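Over the 6 arrays, the 5 genes with the profile most like Ptgs2 among 22180 genes with 1 row each were Dusp19, Glis3, Map4, Igsf6 and Cdh18, with Pearson's r between 0.993 and 0.998. Each had its lowest control value in control replicate 2, such as 9.46 for Igsf6, against a control mean of 9.92 ± 0.40 and an LPS mean of 10.56 ± 0.08 (SD, n = 3). Their differences ran from 0.18 for Cdh18 to 0.65 for Igsf6, below the 3.09 of Ptgs2, and Glis3 and Cdh18 lay within the background range. For Ptges the 5 genes were B430306N03Rik, Gdap10, Tapbp, Ifit2 and H2-T23, with r between 0.995 and 0.998. All 5 were highest in LPS replicate 3: Tapbp, which codes for a chaperone of MHC class I loading, had 8.75 there against an LPS mean of 7.89 ± 0.76 (SD, n = 3), and the interferon-inducible gene Ifit2 had 7.06 against 5.84 ± 1.06 (SD, n = 3). None of these 10 genes passed limma's test over all rows (adjusted p from 0.28 to 0.97). The arrays share the same groups, so these r describe 6 points and carry no test. The genes were chosen by r, so a shared low control replicate 2 or high LPS replicate 3 follows from that choice.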
